A study of Mus musculus with 4 samples.

Results

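The basement membrane is a thin sheet of extracellular matrix that surrounds each vascular smooth muscle cell and underlies the endothelium. In it, laminins and collagen IV each polymerise into a network, nidogens and the heparan sulfate proteoglycan perlecan join the networks, and collagens XV and XVIII lie at the interface with the surrounding fibrillar matrix. Cells hold on to the sheet through integrins, dystroglycan and related receptors. The 10 genes described here encode such components: Col4a1, Col4a2 and Col4a5 (collagen IV chains), Col15a1 and Col18a1 (the collagens XV and XVIII), Lamb2 and Lamc1 (laminin beta2 and gamma1), Nid1 (nidogen-1), Hspg2 (perlecan) and Npnt (nephronectin, a ligand of the integrin that contains the alpha8 chain). All 10 are listed under these symbols in the 3 tables used, out of 18089 genes that the tables have in common.

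The series compares ascending aortic cells of second heart field and other origin before and after infusion of angiotensin II (AngII), a vasoconstrictor peptide. The animals were male Mef2c-mTmG mice, a strain with a Mef2c lineage label and a 2-colour fluorescent reporter, and living single cells were sorted by lineage before capture. The 3 libraries analysed were SHF baseline (second heart field lineage, no infusion), SHF AngII (the same lineage after 3 days of AngII) and CNC AngII (the lineage that the labels call CNC, which they do not spell out, after 3 days of AngII). A baseline sample of the CNC lineage is among the labels and was not analysed here. The labels give neither the age nor the number of animals behind a library, and each group had 1 library, so differences between treatments or lineages carry no replicate check: their intervals are 95% intervals that cover counting error only.

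Smooth muscle cells were gated as cells with at least 5 UMIs (unique molecular identifiers, counts of captured transcripts) of Myh11 and 0 of Pdgfra, and fibroblasts as cells with at least 1 UMI of Pdgfra and at most 2 of Myh11. In the order SHF baseline, SHF AngII, CNC AngII, the libraries held 2259, 4639 and 6410 smooth muscle cells and 3939, 2638 and 845 fibroblasts, at median depths of 9534 to 15485.5 UMIs per cell. The gates separated the marker lists, each of which includes its gating gene: the 6 smooth muscle markers summed to between 56310 and 63663 CPM (counts, here UMIs, of a gene scaled to a common total per class) in smooth muscle cells and 1290 to 4048 in fibroblasts, and the 6 fibroblast markers to 11508 to 26057 CPM in fibroblasts and 1138 to 1364 in smooth muscle cells. The libraries also differed in annotation and in mitochondrial share. The baseline table lists fewer genes than the others, partly under older names, and both AngII tables share one gene list. Every ratio of AngII over baseline therefore includes this difference in annotation, and its part was not tested. Smooth muscle cells of the baseline library had a median of 7.36% mitochondrial UMIs against 5.44% in SHF AngII and 5.16% in CNC AngII, and fibroblasts 4.09%, 2.82% and 2.75%. Any pair of libraries shared at most 29 cell barcodes, or 0.346% of the kept cells of SHF baseline.

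Col4a1 and Col4a2 encode the alpha1 and alpha2 chains of the common collagen IV trimer and are transcribed in opposite directions from one shared promoter on mouse chromosome 8. These windows run from 250 bases before to 50 after each RefSeq start site in GRCm38.p6 and are shown because both genes moved together in fibroblasts. The Col4a1 window is chr8:11312777-11313076 on the minus strand and the Col4a2 window chr8:11312555-11312854 on the plus strand. Capitals mark every GC box (GGGCGG) and CCAAT box (CCAAT) on either strand.
Col4a1: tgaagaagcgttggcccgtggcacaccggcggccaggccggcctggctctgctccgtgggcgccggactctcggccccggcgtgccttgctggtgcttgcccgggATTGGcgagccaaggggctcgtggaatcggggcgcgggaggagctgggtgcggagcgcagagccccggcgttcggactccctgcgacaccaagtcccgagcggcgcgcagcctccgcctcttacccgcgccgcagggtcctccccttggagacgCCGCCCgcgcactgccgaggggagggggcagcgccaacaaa
Col4a2: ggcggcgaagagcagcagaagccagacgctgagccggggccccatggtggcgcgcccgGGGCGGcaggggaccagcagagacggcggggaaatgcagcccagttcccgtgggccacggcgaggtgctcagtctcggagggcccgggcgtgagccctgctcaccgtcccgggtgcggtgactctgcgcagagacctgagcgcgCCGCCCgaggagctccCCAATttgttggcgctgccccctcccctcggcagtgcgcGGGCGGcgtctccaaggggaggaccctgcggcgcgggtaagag
The windows overlap by 78 bases, and the start sites lie 21 bases apart. The transcripts cover 22 bases in common at their 5′ ends, on opposite strands, while the kit used reads 3′ ends. Whether the counting used strand is not given. The Col4a1 window holds 1 GC box and the Col4a2 window 3. The GC box nearest to both starts, chr8:11312812-11312817, is the same 6 bases in both windows. Each window has 1 CCAAT box. Among all 32851 RefSeq promoter windows of this length, 35.7% hold a GC box and 37.4% a CCAAT box, so these matches are a description and not sites of binding. RefSeq windows were matched for 9 of the 10 genes.

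In fibroblasts, both promoter partners were higher after AngII, Col4a1 by 2.43-fold and Col4a2 by 2.22-fold, whereas in smooth muscle cells neither was past 1.5-fold. Fibroblast Col4a1 stood at 344 CPM in SHF baseline, 839 with AngII and 851 in the CNC library. Col4a2 stood at 152, 339 and 392 CPM in the same order. Both AngII libraries, which share an annotation, were thus above the baseline library for both chains, and they lay close to each other. The log2 ratio of SHF AngII over SHF baseline was 1.28 for Col4a1 (interval 1.26 to 1.32) and 1.15 for Col4a2 (1.11 to 1.2). Smooth muscle Col4a1 stood at 526, 513 and 506 CPM and Col4a2 at 368, 316 and 330 CPM. These levels were nearly flat for Col4a1 (log2 ratio -0.04, interval -0.06 to -0.01), and TMM scaling turned the sign (0.14). Col4a2 was slightly lower after AngII (-0.22), close to the shift of -0.18 that TMM scaling takes out of these ratios. The order of the classes differed between the libraries: at baseline Col4a1 was higher in smooth muscle cells than in fibroblasts by 0.61 on the log2 scale, and in SHF AngII the ratio was -0.71.

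The ratio of the chains differed between the classes more than between the libraries. Smooth muscle cells held 1.43, 1.62 and 1.54 Col4a1 UMIs per Col4a2 UMI in SHF baseline, SHF AngII and CNC AngII, and fibroblasts 2.26, 2.48 and 2.17. The 3' counts are not scaled by transcript length, so only the difference between classes can be read from these ratios. Across single cells thinned to 4000 UMIs, Pearson's r of both chains (natural log of UMIs + 1) in fibroblasts was 0.30 in SHF baseline (3412 cells), 0.43 in SHF AngII (2545 cells) and 0.48 in CNC AngII (800 cells). The cells of a library share one depth after thinning, and the value is lower where UMIs are fewer, so it is given as a description.

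Among single fibroblasts, more cells held Col4a1 and more cells held several UMIs of it after AngII. At 4000 UMIs per cell, 63.2% of SHF baseline fibroblasts had a Col4a1 UMI, 88.1% of SHF AngII fibroblasts and 86.4% of CNC AngII fibroblasts (77.4%, 96.7% and 95.5% before thinning). The share with at least 5 UMIs was 4.78%, 27.1% and 28.4%. The median cell moved from 1 UMI at baseline to 3 UMIs in both AngII libraries. As a measure of free RNA, macrophages of the CNC AngII library (at least 2 UMIs each of Csf1r and C1qa, 1575 cells, median 11506 UMIs) had a Col4a1 UMI in 3.91% of cells at the same depth. Cells too shallow to be thinned, which were left out, numbered 527, 93 and 45 fibroblasts.

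**Figure D1:**
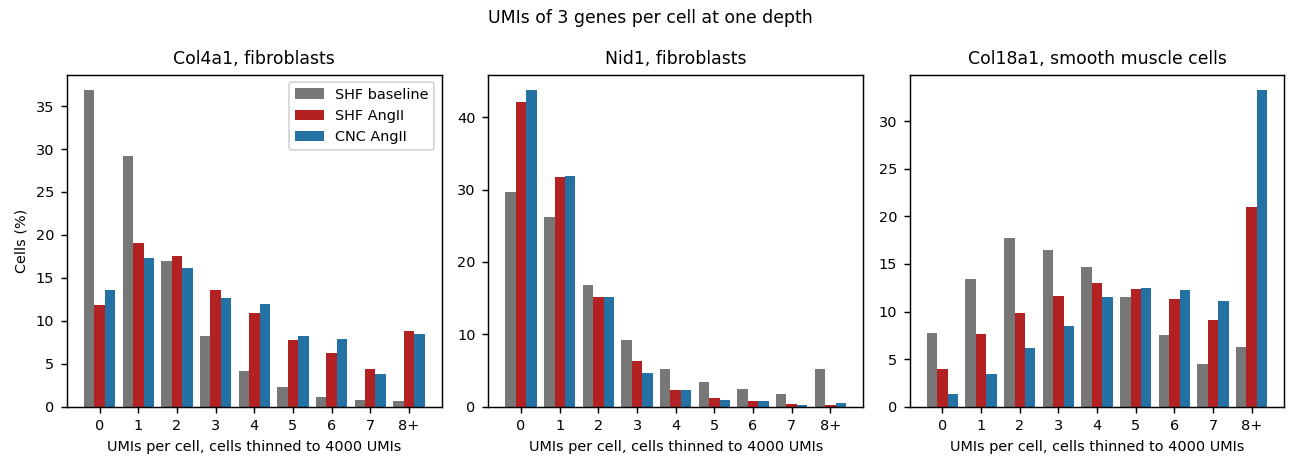
Percent of cells (vertical axis) by UMIs of a gene per cell after thinning to 4000 UMIs (horizontal axis), for Col4a1 and Nid1 in fibroblasts and Col18a1 in smooth muscle cells, with 1 bar colour per library. Fibroblasts of both AngII libraries lie to the right of baseline for Col4a1 (27.1% and 28.4% with at least 5 UMIs against 4.78%) and to the left for Nid1, and smooth muscle cells lie to the right for Col18a1.

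Col4a5 encodes the alpha5 chain, which trimerises with alpha3 and alpha4 or with alpha6, and was lower after AngII in both classes. Smooth muscle cells held 238 CPM of Col4a5 in SHF baseline, 130 in SHF AngII and 121 with the CNC lineage. In fibroblasts it stood at 275, 114 and 111 CPM. The log2 ratio of SHF AngII over baseline was -0.88 in smooth muscle cells (interval -0.93 to -0.84) and -1.26 in fibroblasts (-1.32 to -1.22). The partners of this chain, chosen for a closer look after their values were seen, lay on the same side in fibroblasts. Col4a3 stood at 141, 19.9 and 24.7 CPM in fibroblasts, Col4a4 at 188, 45.5 and 49.7 CPM, and Col4a6 at 81.1, 29.1 and 26.0 CPM. Their log2 ratios in fibroblasts were -2.76, -2.02 and -1.45. In these library sums, the alpha3 to alpha6 chains were thus lower after AngII while alpha1 and alpha2 were higher. Col4a6 in smooth muscle cells also stood lower, at 103, 59.9 and 36.4 CPM, while Col4a3 was under 6 CPM and Col4a4 at most 13.0 CPM throughout. The plot of the collagen IV chains shows this split in fibroblasts.

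**Figure D2:**
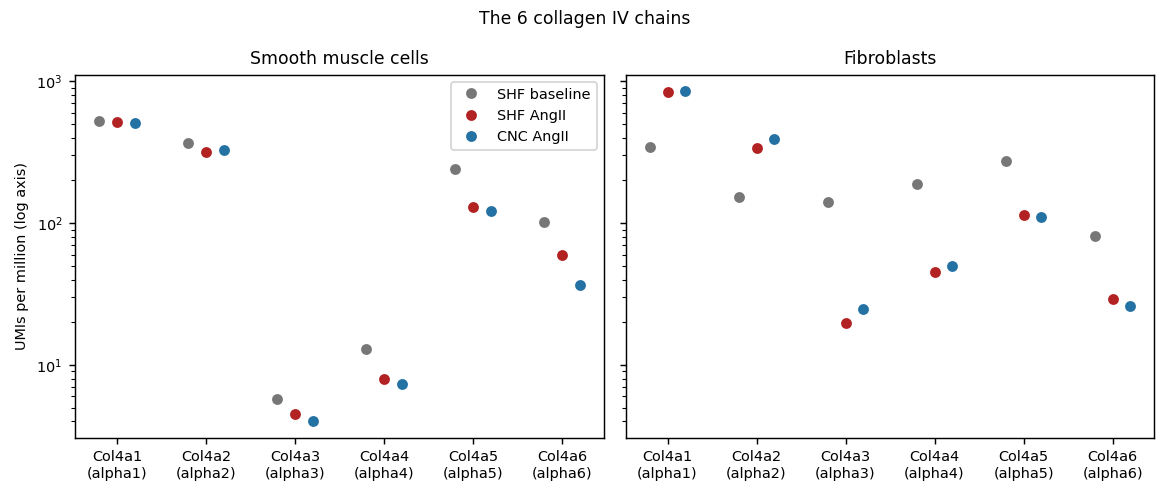
CPM (log axis) of the 6 collagen IV chains in smooth muscle cells (left) and fibroblasts (right), with 1 point per library. In fibroblasts the AngII points lie above the baseline point for Col4a1 and Col4a2 and below it for Col4a3 to Col4a6, whereas in smooth muscle cells the Col4a1 points lie together at 506 to 526 CPM.

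Col15a1 encodes a collagen that links the basement membrane to the fibrillar matrix, and it moved in opposite directions in the classes. Smooth muscle cells held 199 CPM of Col15a1 in SHF baseline, 416 in SHF AngII and 518 with the CNC lineage. In fibroblasts it stood at 265, 78.9 and 129 CPM. At baseline fibroblasts were the higher class (log2 ratio of smooth muscle cells over fibroblasts -0.41), and after AngII smooth muscle cells were the higher class by 2.38 in SHF and 2.0 in CNC. The log2 ratio of SHF AngII over baseline was 1.06 in smooth muscle cells (interval 1.02 to 1.10) and -1.74 in fibroblasts (-1.81 to -1.69). The share of smooth muscle cells with a Col15a1 UMI at 4000 UMIs was 49.1%, 69.7% and 81.5%, and of fibroblasts 44.7%, 20.6% and 31.0% (79.4%, 89.0% and 96.0%, and 56.8%, 40.6% and 50.8%, before thinning). The share in CNC AngII macrophages was 3.84%, beside 31.0% of the fibroblasts of that library. The SHF libraries had too few macrophages to measure free RNA.

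Col18a1 encodes the collagen whose end fragment is endostatin, and within these classes it was a smooth muscle gene. Smooth muscle cells held 894, 1350 and 1602 CPM in SHF baseline, SHF AngII and CNC AngII, and fibroblasts 24.1, 24.6 and 42.6 CPM. The macrophages of CNC AngII held 23.7 CPM, a level that the fibroblasts of both SHF libraries barely exceeded; those libraries had 4 and 5 macrophages, too few to measure free RNA in them. In smooth muscle cells the log2 ratio of SHF AngII over baseline was 0.59 (interval 0.57 to 0.61), just past 1.5-fold. The share of smooth muscle cells with at least 5 Col18a1 UMIs at 4000 UMIs was 29.9%, 53.9% and 69.1%, and the median cell held 3, 5 and 6 UMIs.

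Lamb2 and Lamc1 encode laminin chains that assemble with an alpha chain into a heterotrimer. Lamb2 was somewhat lower after AngII in both classes, at 291, 219 and 227 CPM in smooth muscle cells and 288, 192 and 194 CPM in fibroblasts. Lamc1 moved apart, from 61.7 to 80.9 and 89.8 CPM in smooth muscle cells and from 180 to 111 and 112 CPM in fibroblasts. The log2 ratio of SHF AngII over baseline for Lamc1 was 0.38 in smooth muscle cells (interval 0.31 to 0.47) and -0.69 in fibroblasts (-0.74 to -0.64). Lamb2 lay at -0.41 and -0.58, the latter just inside 1.5-fold. Among alpha chains, Lama5 stood at 35.7, 60.4 and 71.2 CPM in smooth muscle cells (log2 ratio 0.74 in SHF) and Lama2 at 239, 102 and 89.8 CPM in fibroblasts (-1.22). Lama4 differed little after AngII, by -0.21 in smooth muscle cells and -0.34 in fibroblasts, and Lama2 in smooth muscle cells was at -0.30. Between CNC AngII and SHF AngII smooth muscle cells, Lama2 was at -0.64, Lama4 at 0.13 and Lama5 at 0.23, and in fibroblasts Lama2 was at -0.18 and Lama4 at -0.06. Lama1 and Lama3 were below 1 CPM in both classes, and Lama5 in fibroblasts was below the minimum of 10.

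Nid1, the linker between the laminin and collagen IV networks, was a fibroblast gene that stood lower after AngII. Fibroblasts held 533 CPM in SHF baseline, 261 in SHF AngII and 242 with the CNC lineage, and smooth muscle cells 20.6, 19.5 and 14.4 CPM. The log2 ratio of SHF AngII over baseline in fibroblasts was -1.03 (interval -1.06 to -1.0). At 4000 UMIs, 70.3%, 57.9% and 56.2% of fibroblasts had a Nid1 UMI, and the share with at least 5 UMIs was 12.8%, 2.40% and 2.38%. Fibroblasts differed by Pi16, a gene of adventitial fibroblasts: the log2 ratio of Nid1 was -1.13 in cells with a Pi16 UMI and -0.03 in cells without, a split made after seeing the data and not tested. Fibroblasts without a Pi16 UMI numbered 550 in SHF baseline and 264 in SHF AngII, against 3389 and 2374 with a Pi16 UMI. Finding a Pi16 UMI depends on depth, and the median fibroblast held 9534 UMIs in SHF baseline and 15485.5 in SHF AngII. The smooth muscle ratio of Nid1 was -0.08 with an interval on both sides of 0, and turned to 0.10 with TMM scaling.

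Hspg2, the perlecan core protein, was higher after AngII mainly in smooth muscle cells, at 258, 381 and 461 CPM against 190, 218 and 218 CPM in fibroblasts. Its log2 ratio of SHF AngII over baseline was 0.56 in smooth muscle cells (interval 0.52 to 0.60), just short of 1.5-fold, and 0.19 in fibroblasts. Npnt was a smooth muscle gene at 782, 643 and 891 CPM. Fibroblasts held 10.9, 7.2 and 11.8 CPM of Npnt, beside 10.0 CPM in the CNC AngII macrophages. In the CNC AngII library it could not be told from free RNA, which could not be measured in the SHF libraries. Smooth muscle Npnt was lower in SHF AngII than in SHF baseline by a log2 ratio of -0.28 and highest in CNC AngII.

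**Figure D3:**
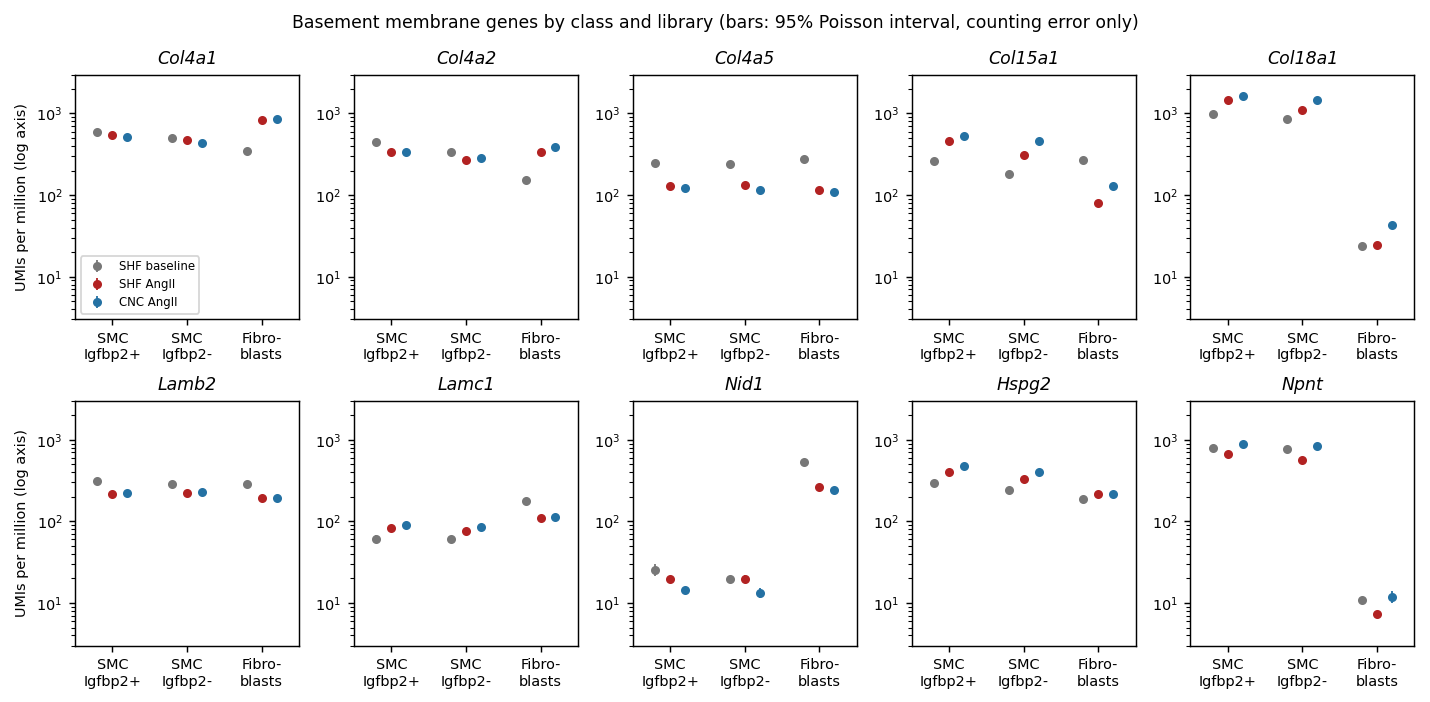
CPM (log axis) of each gene in Igfbp2-positive smooth muscle cells, Igfbp2-negative smooth muscle cells and fibroblasts, with 1 point per library and bars for the 95% Poisson interval, mostly smaller than the point. Col18a1 and Npnt lie far lower in fibroblasts, Nid1 far lower in smooth muscle cells, and Col15a1 in fibroblasts lies lower in the AngII libraries than at baseline.

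Across the group, 3 of 10 genes were past 1.5-fold between SHF AngII and SHF baseline in smooth muscle cells (Col15a1 and Col18a1 higher, Col4a5 lower), where 24.3% of the 6992 genes with a mean of at least 10 CPM were past it (8.72% higher, 15.5% lower). The median log2 ratio of the 10 was -0.06, beside -0.10 over all those genes. In fibroblasts 6 of 9 were past it (Col4a1 and Col4a2 higher; Col4a5, Col15a1, Lamc1 and Nid1 lower), where 38.1% of 7685 genes were (10.5% higher, 27.6% lower), and the median was -0.58 beside -0.21. Npnt fell below the CPM minimum there. The TMM scaling factors themselves corresponded to a shift of -0.18 in smooth muscle cells and -0.28 in fibroblasts, which that scaling takes out of every ratio. It took Lamc1 back inside 1.5-fold in fibroblasts (-0.41) and Hspg2 past it in smooth muscle cells (0.74). Under a stricter cell filter, with 1000 genes as the minimum and 5% mitochondrial UMIs as the maximum, 120 baseline smooth muscle cells remained and 6 genes were past 1.5-fold there, with Nid1 at -1.47, Col18a1 at 1.21 and Col4a5 at -1.42. The ratios were also computed on totals without mitochondrial and ribosomal protein genes. Beyond these alternatives, the part of mitochondrial RNA in the ratios was not tested.

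The difference between the classes in their log2 ratios, smooth muscle cells minus fibroblasts, was past 1.5-fold for 5 of 9 genes, where 13.4% of 6486 genes were past it (9.62% higher, 3.81% lower). It was 2.80 for Col15a1, 1.07 for Lamc1 and 0.95 for Nid1, and -1.32 for Col4a1 and -1.37 for Col4a2. For Nid1 it turned to -0.34 under the stricter cell filter and to -0.047 with Pi16-negative fibroblasts alone, neither past 1.5-fold. The remaining 4 genes lay between 0.17 (Lamb2) and 0.56 (Col18a1). There is 1 library per group, so these differences were not tested.

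Other changes in the fibroblast class ran alongside. From SHF baseline to SHF AngII the 6 fibroblast markers together went from 26057 to 13552 CPM (none of 6 at 0), the 6 smooth muscle markers from 1290 to 4048 CPM (0 of 6 at 0) and the 3 cycling markers from 10.8 to 138 CPM. The 7 endothelial markers went from 60 to 14.5 CPM, with Cdh5, which defines endothelium, at 1.16 and 0.02 CPM. Median depth went from 9534 to 15485.5 UMIs. Without cells that had a cycling marker, Col4a1 was at 1.28, Col15a1 at -1.74 and Nid1 at -0.93, and after thinning to 4000 UMIs before gating at 1.25, -1.64 and -0.95. The fibroblast ratios were also computed with the stricter gates and without cells that had markers of other types. Beyond these alternatives, the part of the marker changes in the ratios was not tested.

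**Figure D4:**
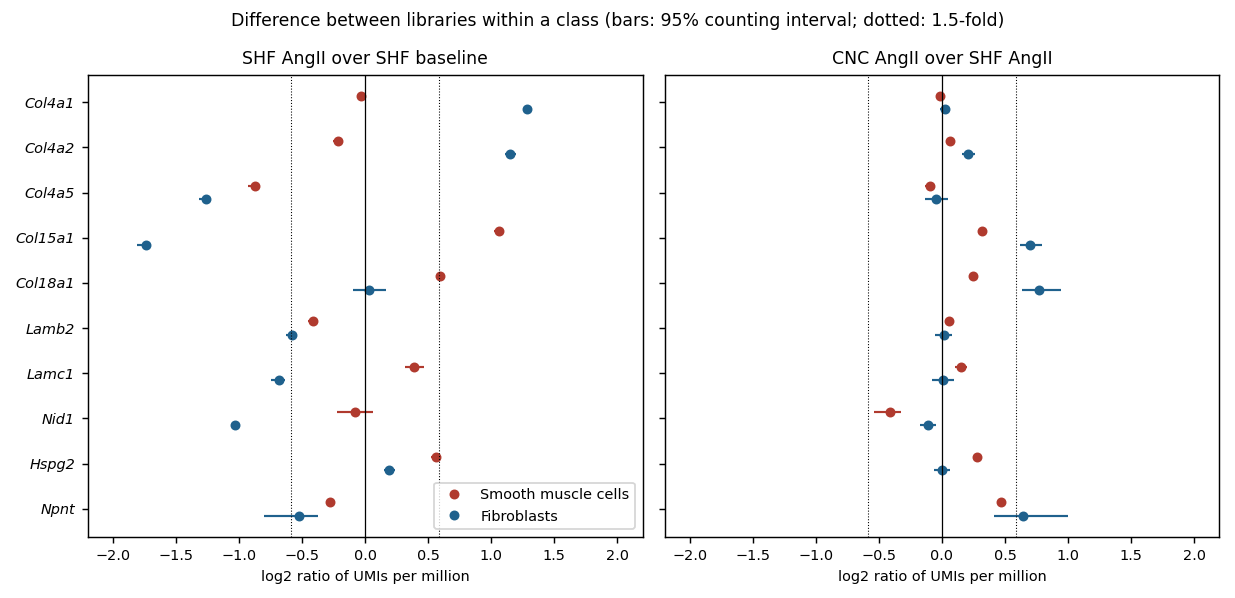
Log2 ratio of CPM between libraries (horizontal axis) for each gene, SHF AngII over SHF baseline on the left and CNC AngII over SHF AngII on the right, in smooth muscle cells and fibroblasts; bars are 95% counting intervals and dotted lines 1.5-fold. On the left the classes part for Col4a1, Col4a2, Col15a1, Lamc1 and Nid1, and on the right all smooth muscle points lie within 1.5-fold.

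Fewer genes were past 1.5-fold between the lineages after AngII than between SHF AngII and SHF baseline, in the group and over all genes. Of the 10 genes, 0 were past 1.5-fold between CNC AngII and SHF AngII smooth muscle cells, where 1.94% of 6762 genes were (0.976% higher, 0.961% lower). The farthest were Npnt at 0.47 (643 against 891 CPM, interval 0.45 to 0.49), Nid1 at -0.41 (19.5 against 14.4 CPM) and Col15a1 at 0.31 (416 against 518 CPM). Hspg2 at 0.28 and Col18a1 at 0.25 were also higher in CNC, whereas Col4a1 at -0.02 had an interval that reached 0. CNC AngII smooth muscle cells carried more macrophage RNA, with 6 markers at 190 CPM against 1.14 in SHF AngII. The macrophages themselves held at most 23.7 CPM of any of the 10 genes, and without cells that had markers of other types the values were 0.49 for Npnt and 0.32 for Col15a1. Nid1 stood at 261 CPM in SHF AngII fibroblasts, and the part of fibroblast RNA in its smooth muscle ratio was not tested. In fibroblasts 2 of 9 genes were past 1.5-fold, where 2.4% of 7211 genes were (1.3% higher, 1.1% lower). They were Col15a1 at 0.70 (78.9 against 129 CPM, interval 0.62 to 0.80) and Col18a1 at 0.77 (24.6 against 42.6 CPM), the latter beside 23.7 CPM in the macrophages of CNC AngII. The 6 macrophage markers (0 of 6 at 0) summed to 125 CPM in the CNC fibroblasts against 9.83 in those of SHF AngII. Without cells that had markers of other types, Col15a1 was at 0.68 and Col18a1 at 0.81. With fibroblasts gated as at least 2 UMIs of Pdgfra and 0 of Myh11, which left 374 in CNC AngII, Col15a1 was at 0.44 and no longer past 1.5-fold.

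Because both classes come from every library, they could be tested against each other over 3 libraries, with the library as a block. TMM scaling moved the split of all calls from 2156 higher and 4533 lower to 3206 and 3315. The 3 libraries differ in lineage and treatment, so they are not replicates of a condition, and whether they hold separate animals is not given. Between smooth muscle cells and fibroblasts 49.5% of 13500 genes were called by edgeR at an adjusted p of 0.05 (16% higher in smooth muscle cells, 33.6% lower), and 4 of the 10 genes were. Npnt was higher in smooth muscle cells by 6.29 ± 0.13 (log2 fold ± SE, edgeR adjusted p 0.000317) and Col18a1 by 5.41 ± 0.18 (edgeR adjusted p 0.000317), in all 3 libraries. Fibroblast Npnt, and Col18a1 in the SHF libraries, lay near the level of free RNA in CNC AngII macrophages. Free RNA could not be measured in the SHF libraries, so its part in these folds is not known, and they may understate the difference. Nid1 was lower by -4.16 ± 0.23 (edgeR adjusted p 0.000565) and Hspg2 higher by 0.77 ± 0.15 (edgeR adjusted p 0.0131), again in all 3. Lamc1, at -0.77 ± 0.27, was lower in all 3 but did not pass (edgeR adjusted p 0.0720). Col15a1 at 1.38 ± 0.63, Col4a1 at -0.29 ± 0.31 and Col4a2 at 0.30 ± 0.34 did not pass, and their order differed between baseline and AngII as given above. Without SHF baseline 7 genes were called, with Col4a1 at -0.73 and Col15a1 at 2.2 among them, whereas without SHF AngII or without CNC AngII 3 were called, and Hspg2 was lost (edgeR adjusted p 0.0635 and 0.0508). Called genes numbered 5 with TMM scaling and with DESeq2, where Lamb2 was added (0.35 and 0.36), and 5 after thinning, where Lamc1 was added (-0.84).

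Igfbp2, which encodes a binding protein of insulin-like growth factors, divides the smooth muscle cells. Cells with at least 2 Igfbp2 UMIs were 15.8%, 57.9% and 72.5% of the smooth muscle class (SHF baseline, SHF AngII, CNC AngII), and cells with 0 were 76.3%, 32.6% and 19.0%. Igfbp2-positive cells were deeper, at medians of 14339.5 to 15084.5 UMIs against 10402.5 to 11965. Between them 7.02% of 12109 genes were called by edgeR (2.46% higher, 4.56% lower), and 5 of the 10 genes, all higher in Igfbp2-positive cells in all 3 libraries. Col15a1 was higher by 0.43 ± 0.07 (edgeR adjusted p 0.00696), with 263 against 179 CPM in SHF baseline, 461 against 314 in SHF AngII and 530 against 459 in CNC AngII. Col4a2 was higher by 0.31 ± 0.04 (edgeR adjusted p 0.00383) and Col4a1 by 0.22 ± 0.04 (edgeR adjusted p 0.00847). Hspg2 was higher by 0.26 ± 0.04 (edgeR adjusted p 0.00559) and Col18a1 by 0.25 ± 0.05 (edgeR adjusted p 0.0144). These 5 differences are below 1.5-fold. TMM scaling moved the split of all calls from 298 higher and 552 lower to 420 and 439. Npnt at 0.14 ± 0.04 was higher in all 3 libraries but did not pass (edgeR adjusted p 0.103), and Lamc1, Nid1, Col4a5 and Lamb2 lay between 0.01 and 0.14. The count was 5 after thinning to 4000 UMIs before gating. It was 2 under the stricter cell filter (Col15a1 and Col18a1), where 306 genes in all were called and 13 Igfbp2-positive cells remained in SHF baseline. Without CNC AngII 3 genes were called (Col4a1 and Col18a1 were lost, edgeR adjusted p 0.0785 and 0.0507), and without the library as a block none was, where 1 gene of 12109 was called and 0 of the 10 had an unadjusted p under 0.05. The 6 fibroblast markers (1 of 6 at 0, the gating gene Pdgfra) summed to 1091, 1274 and 1215 CPM in Igfbp2-positive and 1174, 1643 and 1011 CPM in Igfbp2-negative cells. Dcn alone, chosen after its value was seen, stood at 71.2 CPM in Igfbp2-positive and 427 CPM in Igfbp2-negative cells of SHF AngII. It does not stand for the list, whose sum was higher in Igfbp2-positive cells of CNC AngII. The part of fibroblast RNA in the differences was not tested.

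**Figure D5:**
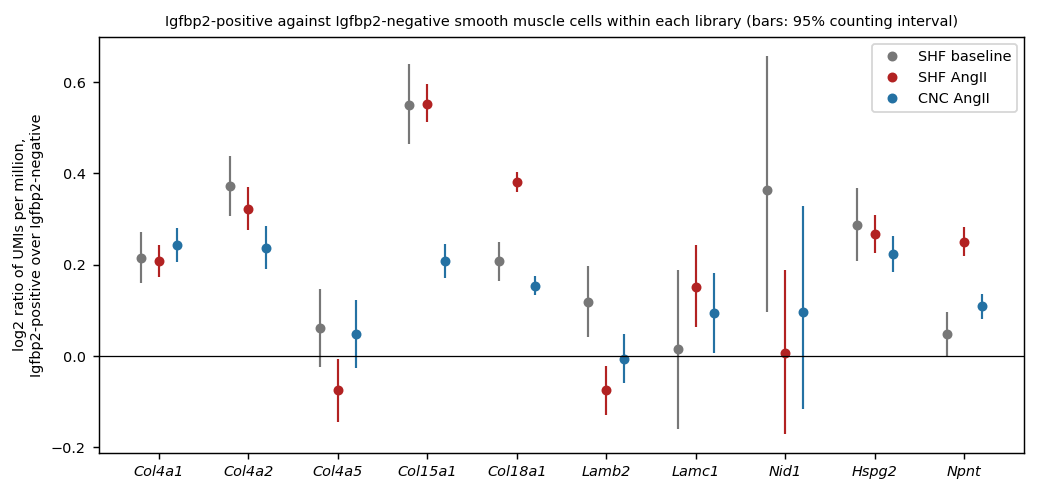
Log2 ratio of CPM of Igfbp2-positive over Igfbp2-negative smooth muscle cells (vertical axis) for each gene and library, with 95% counting intervals. Col4a1, Col4a2, Col15a1, Col18a1 and Hspg2 lie above 0 in all 3 libraries, Col15a1 at 0.55 in both SHF libraries and 0.21 in CNC AngII.

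The higher Col15a1 of the AngII library was present on both sides of the Igfbp2 split. In Igfbp2-positive cells 2 of 10 genes were past 1.5-fold between SHF AngII and SHF baseline (25% of 6923 genes were, 8.61% higher and 16.4% lower), and in Igfbp2-negative cells 2 of 10 (20% of 7065 genes, 7.71% higher and 12.3% lower). In both they were Col15a1 (0.81 and 0.81) and Col4a5 (-0.96 and -0.82). Col18a1 lay at 0.55 and 0.38, inside 1.5-fold. In Igfbp2-positive cells it was past 1.5-fold with TMM scaling (0.75) and after thinning (0.67). The stricter cell filter left 13 Igfbp2-positive and 101 Igfbp2-negative cells in SHF baseline. Under it, Col18a1 was past 1.5-fold in both classes (1.01 and 1.03). Between CNC AngII and SHF AngII 0 of 10 were past it in Igfbp2-positive cells (1.42% of 6707 genes, 0.835% higher and 0.581% lower) and 0 of 10 in Igfbp2-negative cells (4.0% of 6874 genes, 1.8% higher and 2.2% lower), where Col15a1 was at 0.55 and Npnt at 0.55. The level of Col15a1 was also read by the amount of Igfbp2 within each library. In SHF AngII cells thinned to 4000 UMIs, Col15a1 stood at 321 CPM with 0 Igfbp2 UMIs, 386 with 1, 420 with 2 to 3 and 454 with 4 or more. The same bins held 176, 198, 334 and 273 CPM in SHF baseline and 475, 509, 550 and 524 CPM in CNC AngII. The lowest value was at 0 Igfbp2 UMIs in each library, and the intervals of the last 2 bins overlapped in all 3.

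The machinery around these genes was described with 4 lists of other genes. Over all genes, 8.72% were higher and 15.5% lower in smooth muscle cells of SHF AngII over SHF baseline, and 10.5% and 27.6% in fibroblasts. Among 20 measured genes of collagen and laminin folding, modification, secretion and crosslinking, 11 were past 1.5-fold higher and 0 lower in smooth muscle cells of SHF AngII over SHF baseline (median 0.62, beside -0.10 for all genes), and 9 and 0 of 19 in fibroblasts (median 0.50, beside -0.21). Serpinh1, the collagen chaperone, stood at 653 and 871 CPM in smooth muscle cells. Lox, which crosslinks fibrillar collagens and elastin, stood at 246 and 1178 CPM in fibroblasts (log2 ratio 2.25). Among assembly partners (other laminin and collagen IV chains, nidogen-2, agrin and further matrix proteins), 3 of 14 were higher and 3 lower in smooth muscle cells, against 1 of 17 higher and 12 lower in fibroblasts (median -0.94). Lamc3, the laminin gamma3 chain, was among the 3 lowest in both classes (-1.39 and -1.57), with Col4a6 (-0.76) and Col4a4 (-0.65) in smooth muscle cells and Col4a3 and Col4a4 in fibroblasts.

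Among receptors 4 of 12 were higher and 0 lower in smooth muscle cells (median 0.26), and 3 higher and 2 lower of 11 in fibroblasts (median -0.08), where Itga1, a collagen-binding integrin chain, went from 6.25 to 38.9 CPM. Among remodelling enzymes and inhibitors 8 of 13 were higher and 1 lower in smooth muscle cells (median 0.76), and 3 higher and 5 lower of 14 in fibroblasts (median -0.18). Timp1, an inhibitor of matrix metalloproteinases, had the highest ratio of all 4 lists in both classes, from 23.3 to 275 CPM in smooth muscle cells (3.51) and from 202 to 3267 CPM in fibroblasts (4.01). In smooth muscle cells it was followed by Smoc2 (1.88) and Mmp3, a matrix metalloproteinase (1.78), and in the Igfbp2-positive and Igfbp2-negative cells the same 3 genes had the highest ratios.

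Between CNC AngII and SHF AngII smooth muscle cells, 1 gene of all 4 lists was past 1.5-fold higher, Smoc2 (30.6 against 65.7 CPM), and 6 were lower, where 0.976% and 0.961% of all genes were. Itga3 (0.53) and Dag1, which encodes dystroglycan (0.29), had the next ratios. Fbln1 was the lowest, at 30.7 against 2.62 CPM, with Mmp3 (-0.97) and Lamc3 (-0.84). In SHF AngII fibroblasts Fbln1, Mmp3 and Lamc3 stood at 588, 677 and 48.7 CPM. Smoc2, which was higher in CNC smooth muscle cells, stood at 443 CPM in SHF AngII fibroblasts. Fibroblasts were 28.4% of the kept cells of SHF AngII and 8.26% of those of CNC AngII. The part of fibroblast RNA in these smooth muscle ratios was not tested. In fibroblasts Timp3 (0.72), Itga8 (0.56) and Bcam (0.43) had the highest ratios and Smoc2 (-0.97), P4ha3 (-0.68) and Mmp3 (-0.66) the lowest.

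Between Igfbp2-positive and Igfbp2-negative cells edgeR called 11 of 21 folding and crosslinking genes higher and 0 lower (median 0.24, beside -0.04 for all genes, of which 2.46% were called higher and 4.56% lower), among them Serpinh1 at 0.32 (edgeR adjusted p 0.00223) and Loxl2 at 0.66 (edgeR adjusted p 0.000751). Loxl2, Qsox1 (0.46) and Pxdn (0.45) had the highest folds of genes with at least 10 CPM, and Fbln1 (-1.83), Mmp3 (-0.91) and Lamc3 (-0.60) the lowest, all 6 called. Lama5 at 0.23 and Lama2 at -0.49 were called, and Lama4 at -0.09 was not. It called 4 of 14 receptors higher and 0 lower, 4 of 19 assembly partners higher and 5 lower, and 1 of 17 remodelling genes higher and 2 lower. Between smooth muscle cells and fibroblasts, where 16% of all genes were called higher and 33.6% lower, it called 9 of 16 receptors higher in smooth muscle cells and 3 lower, Itga7 at 5.17 (edgeR adjusted p 0.000317) and Itga8, a chain of the nephronectin receptor, at 4.47 (edgeR adjusted p 0.000325) among the higher, whereas 16 of 25 assembly partners were lower and 4 higher. Tinagl1 (6.54), Itga7 and Bcam (5.15) had the highest folds of genes with at least 10 CPM, and Fbln1 (-5.56), Mmp3 (-4.79) and Smoc2 (-3.95) the lowest, all 6 called. Lama5 at 3.35, Lama2 at -3.33 and Lama3 at -2.55, the last at below 1 CPM, were called, and Lama4 at -0.03 was not.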

How the data were processed

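Cells of the ascending aorta were captured with the 10x Chromium 3' v3 kit, per the labels' protocols. The authors deposited 1 table per library of raw counts (UMIs, whole numbers per gene and cell barcode, not normalised). Per the submitters' processing notes, fastp, STAR 2.5, HTSeq 0.6.1 and the build mm10 were used, with no roles given; whether counting used strand is not given in the sources used here. On the other strand, exons of Col4a1 and Col4a2 overlap over 22 bases at their 5' ends, while the kit reads 3' ends. Col4a2 also overlaps Gm15419, Col15a1 Gm12426 and Nid1 Gm48682 on the other strand. Reads within these overlaps could be shared if strand was ignored. The libraries held 92474476, 147854476 and 150954701 UMIs in 9412, 11166 and 11098 barcodes (SHF baseline, SHF AngII, CNC AngII).

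Baseline gene names were matched to the AngII tables by name or, for 513 genes, by a unique synonym; 18089 genes were common and held at least 99.4% of each library's UMIs. Cells were kept from 500 genes upward and up to 10% mitochondrial UMIs, and doublets marked by Scrublet in scanpy 1.11.5 (207, 218 and 243) were left out, leaving 8374, 9274 and 10230 cells. Per library and gate, each gene was summed and expressed as CPM of the summed UMIs. Ratios are log2 with 1 CPM added; their 95% conditional binomial intervals have none added. A gene is past the threshold at 1.5-fold among genes with a mean of at least 10 CPM. Intervals cover counting error only, since a library shares animals and preparation.

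Gates present in every library were compared with edgeR 4.0.16 (quasi-likelihood, library as a block because both sums come from one library, total UMIs as library size, filterByExpr, Benjamini-Hochberg over all genes). DESeq2 1.42.0 was an alternative. Other alternatives were TMM scaling, a stricter cell filter, stricter gates, thinning to 4000 UMIs and leaving out cells with other markers. Further ones were totals without mitochondrial and ribosomal protein genes, mean shares per cell, a pseudocount of 10, no minimum level and leaving out a library. Splits by Pi16 and leaving out cycling cells were added after seeing the data. The genes and lists were chosen with earlier results of these data known. The naming rule was all 10 genes, the 3 highest and 3 lowest genes of the 4 lists in each comparison with a mean of at least 10 CPM, and the laminin alpha chains. For comparisons of libraries within the Igfbp2 classes, the list genes it selects are given only where they are highest after AngII. Other named genes were chosen after their values were seen.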

Additional observations from a re-analysis of the deposited data

Results flagged for a closer look

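Between SHF AngII and SHF baseline, 4 of the 10 genes had log2 ratios of opposite sign in smooth muscle cells and fibroblasts, with counting intervals that excluded 0 in both. Col4a1 was at -0.04 in smooth muscle cells and 1.28 in fibroblasts, Col4a2 at -0.22 and 1.15, Col15a1 at 1.06 and -1.74, and Lamc1 at 0.38 and -0.69. For Col4a1 the smooth muscle side is small and turned to 0.14 with TMM scaling. For Col4a2 the smooth muscle value lies close to the shift of -0.18 that TMM scaling takes out. These differences between classes were not tested, since each group had 1 library.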

How the results depend on the processing

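Of the values without a test, 804 stayed the same under an alternative, 244 moved and 2 reversed. Ratios between libraries were judged by their counting interval, and differences between the classes by whether they stayed on the same side of 1.5-fold. A value without a test counted as reversed only if it had been past 1.5-fold and changed sign. Other changes of sign among them are counted as moved or the same. For values with a test, any change of sign counted as reversed, called or not, so the counts of reversed values are not alike. Of the values with a test, 205 kept direction and call, 8 gained a call, 12 lost it and 15 reversed. The cause was not tested. Between SHF AngII and SHF baseline, the stricter cell filter gave 6 genes past 1.5-fold in smooth muscle cells (3 before) and 5 in Igfbp2-negative cells (2 before). In Igfbp2-positive cells there were 4 after thinning and 5 with TMM scaling (2 before). Between CNC AngII and SHF AngII, the stricter gate left 1 in fibroblasts (2 before); Igfbp2-positive cells had 1 after thinning (0 before), and Igfbp2-negative cells 1 with doublets kept, with the stricter cell filter, after thinning and with the mean share per cell (0 before). No library could be left out of these comparisons.

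Leaving out 1 library gave 3 to 7 genes called between smooth muscle cells and fibroblasts (4 before) and 3 to 6 between Igfbp2-positive and Igfbp2-negative cells (5 before), where the stricter cell filter gave 2. Without the replicate block that pairs sums of a library, 4 and 0 were called. The class difference of Nid1 was -0.34 with the stricter cell filter and -0.047 in Pi16-negative fibroblasts. Between smooth muscle cells and fibroblasts, Col4a2 was -0.18 without SHF baseline (up to 0.59 with another library left out). Col4a5 was -0.011 without cells that had other markers, -0.031 without the replicate block, and -0.038 (without SHF AngII) to 0.16 with 1 library left out. Between Igfbp2-positive and Igfbp2-negative cells, Col4a5 was -0.037 (stricter cell filter), -0.027 (stricter gate), -0.078 (thinned) and -0.014 to 0.056 with 1 library left out. Lamb2 was -0.077 (stricter cell filter), -0.030 (thinned), -0.0075 (without cells with other markers) and -0.041 to 0.054 with 1 library left out, and Nid1 -0.29 (stricter cell filter). Between smooth muscle cells and fibroblasts the split of all calls was 2156 higher and 4533 lower, and 3206 and 3315 with TMM scaling; with DESeq2 they were 3178 and 3449. Between the Igfbp2 classes they were 298 and 552, and 420 and 439 with TMM scaling and 291 and 186 with DESeq2. All Igfbp2-class calls numbered 850, and 306 with the stricter cell filter, 477 with DESeq2, 1663 without a filter on low counts, 1 without the replicate block, 258 without CNC AngII and 1404 without SHF baseline. The class calls numbered 6689, and 3734 without the replicate block and 3756 without SHF AngII. Free RNA limits what can be read of Npnt and Col18a1 in fibroblasts.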

Other observations

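Over the 9 sums of 3 libraries by 3 classes (Igfbp2-positive and Igfbp2-negative smooth muscle cells and fibroblasts), the genes most like each of the 10 were taken from 2600 genes with a mean of at least 50 CPM, by Pearson's r of log2 levels. The sums share libraries and cell classes, so r is a description and carries no test. Npnt was most like Tspan2 (0.999) and Ldb3 (0.999), Col18a1 like Dmpk (0.999) and Rbpms2 (0.999), and Nid1 like Mmp2, a gelatinase (0.997), and Pi16 (0.995). Lamc1 was most like Ctsl (0.987), Hspg2 like Capn2 (0.987) and Col15a1 like Pafah1b1 (0.966).

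Among the 10, the pair Col18a1 and Npnt had the highest r (0.992). Col4a5 and Lamb2 were at 0.946, both lower in the AngII libraries in either class. Their nearest genes were Irf2bp2 (0.992) for Col4a5 and Strn3 (0.991) for Lamb2. Col4a1 and Col4a2 had the lowest leading values, 0.921 with Hpf1 and 0.925 with Cct2, and 0.735 with each other. Across single smooth muscle cells the strongest pair was Col15a1 and Col18a1 in SHF AngII, at 0.29 over 4608 cells thinned to 4000 UMIs (Pearson's r of the natural log of UMIs + 1).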
